A study of Danio rerio with 6 samples.

Results

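Counts per gene were examined for 6 genes of scavenger and lymphatic endothelium, stab1, stab2, mrc1a, lyve1a, prox1a and flt4, out of 31452 genes listed in RNA sequencing of whole zebrafish embryos. Of the 6, 5 were taken by their symbol, and lyve1a, which carries no symbol in the deposited files, by its identifier ENSDARG00000075833. All 6 passed the filter on low counts that left 17557 tested genes. Every library was made from 15 pooled embryos at 3 days post fertilisation. All embryos came from a cross of Tg(14xUAS:GFP-EWSR1-ERG) fish, in which Gal4 switches on the fusion, to fish with the Gal4 line Et(E1b:Gal4-VP16)s1101t and the fluorescent reporter Tg(UAS:Kaede) s1999t. Embryos with EWSR1-ERG in their neurons made up 3 pools, and wild-type siblings without EWSR1-ERG expression made up 3. EWSR1-ERG joins part of EWSR1 to the ETS factor ERG and occurs in Ewing sarcoma. The labels place the fusion in neurons and say nothing of vessels, and they leave unsaid whether the wild-type embryos carried the driver or the reporter. No row of the counts stands for the fusion, so its own RNA was not measured.

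Scavenger endothelial cells of the zebrafish line veins and take up waste molecules from the blood, and related lymphatic endothelial cells of the meninges do so at the surface of the brain. The stabilins stab1 and stab2, the mannose receptor mrc1a and the Lyve1 proteins are surface receptors of these cells that bind and internalise ligands such as hyaluronan and denatured or modified proteins. Flt4, also called Vegfr3, is the receptor through which Vegfc drives lymphatic vessels to sprout from veins, and prox1a encodes a homeodomain transcription factor of lymphatic cells. Not all of these genes are limited to endothelium: in mammals STAB1, MRC1 and LYVE1 are also made by macrophages, and prox1 genes are active in lens, liver, muscle and neural tissue.

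Library totals ran from 5611197 to 13338802 counts in EWSR1-ERG pools and from 4771843 to 5672149 counts in wild-type pools (exact permutation p = 0.2, n = 3 per group). The deepest library was EWSR1-ERG replicate 3, the only one from lane 1, while the others came from lane 2. Mitochondrial genes took 2.82% ± 0.175 of the counts in EWSR1-ERG pools and 4.08% ± 0.243 in wild-type pools (SD, n = 3 per group; exact permutation p = 0.1, the smallest that 3 against 3 allow). Of the EWSR1-ERG pools, replicate 1 stood apart, at chi-square values of 7.09 and 11.04 per gene against the other EWSR1-ERG pools, which differed from each other by 3.40. Of the wild-type pools, replicate 3 stood apart, with 7.48 and 5.07 against 1.75. The labels call the pools of a group biological replicates without saying that they came from separate clutches, so p-values reflect only how far these pools spread. In whole-embryo RNA, fewer cells of a type and less RNA per cell cannot be told apart.

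The receptor genes stab1, stab2, mrc1a and lyve1a rose in EWSR1-ERG pools, between 2.35-fold and 6.75-fold, while prox1a and flt4 did not pass the test. All 4 were called by the quasi-likelihood test of edgeR (Benjamini-Hochberg adjusted p below 0.05) and at least 2-fold higher, as were 2.48% of all tested genes. Without the fold limit, 7.46% of all tested genes were called higher and 9.87% lower in EWSR1-ERG pools. The 4 receptor genes were also the ones among the 6 whose CPM (counts scaled to library totals) did not overlap between the groups. Over all tested genes, 35.1% did not overlap, and 17.1% did not overlap and were higher in EWSR1-ERG pools.

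The largest change of the 6 was in lyve1a (chromosome 7 of the Zv9 build), whose mammalian counterpart is a hyaluronan receptor used to mark lymphatic endothelium. It had 142, 103 and 164 counts in EWSR1-ERG replicates 1, 2 and 3, against 9, 21 and 9 counts in wild-type replicates 1, 2 and 3. On the CPM scale these were 21.7, 18.0 and 12.6 CPM in EWSR1-ERG pools and 1.52, 4.06 and 2.03 CPM in wild-type pools. Every EWSR1-ERG pool thus lay above every wild-type pool, and the lowest EWSR1-ERG pool was the deepest library. The log2 fold change was 2.76 (SE 0.321, edgeR adjusted p = 8.28e-05), with a 95% interval of 4.17-fold to 10.9-fold. The wild-type counts are small: the 9 counts of wild-type replicate 1 have an exact Poisson 95% interval of 4.12 to 17.1 counts, which covers counting error only. Of all tested genes, 0.245% had a larger log2 fold change.

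The stabilins are large scavenger receptors, and both rose. For stab1 (ENSDARG00000076484, chromosome 22) the EWSR1-ERG pools held 153, 92 and 225 counts, or 23.4, 16.1 and 17.3 CPM. The wild-type pools held 34, 38 and 31 counts of stab1, or 5.76, 7.36 and 7.00 CPM. The groups were far apart compared with the spread within each, and the log2 fold change was 1.50 (SE 0.198, edgeR adjusted p = 0.000128; 95% interval 2.11-fold to 3.79-fold). For stab2 (ENSDARG00000045748, chromosome 4), an endocytic receptor for hyaluronan, the EWSR1-ERG pools held 187, 64 and 158 counts, or 28.6, 11.2 and 12.1 CPM. The wild-type pools held 37, 23 and 19 counts of stab2, or 6.26, 4.45 and 4.29 CPM. EWSR1-ERG replicate 1 stood well above the other pools of its group here, 2.56-fold above the lowest, and the groups still did not overlap. The log2 fold change of stab2 was 1.75 (SE 0.401, edgeR adjusted p = 0.0159; 95% interval 1.80-fold to 6.28-fold).

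The mannose receptor gene mrc1a (ENSDARG00000073928, chromosome 7), whose product binds mannose-rich glycoproteins, had 153, 71 and 141 counts in EWSR1-ERG pools, against 45, 27 and 29 counts in wild-type pools. These were 23.4, 12.4 and 10.8 CPM in EWSR1-ERG pools and 7.62, 5.23 and 6.55 CPM in wild-type pools. Replicate 1 was again the highest EWSR1-ERG pool, and the groups did not overlap. The log2 fold change was 1.23 (SE 0.305, edgeR adjusted p = 0.0171; 95% interval 1.48-fold to 3.73-fold).

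**Figure D1:**
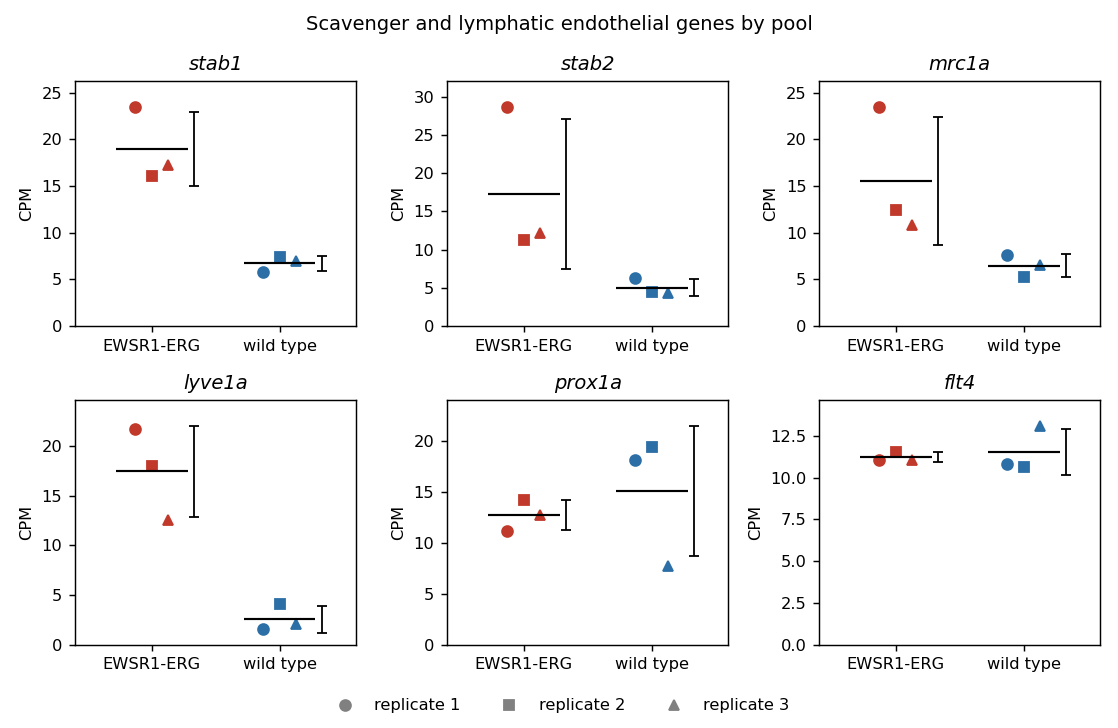
CPM of each of the 6 genes in every pool, with EWSR1-ERG pools in red and wild-type pools in blue; symbols give the replicate number, horizontal lines the mean and bars the SD (n = 3). For stab1, stab2, mrc1a and lyve1a all EWSR1-ERG pools lie above all wild-type pools, with replicate 1 the highest EWSR1-ERG pool, whereas the groups overlap for prox1a and flt4.

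The lymphatic transcription factor gene prox1a (ENSDARG00000055158, chromosome 17) had 73, 81 and 166 counts in EWSR1-ERG pools, or 11.2, 14.2 and 12.7 CPM. In wild-type pools it had 107, 100 and 34 counts, or 18.1, 19.4 and 7.68 CPM. The wild-type pools thus enclosed the EWSR1-ERG pools, since wild-type replicate 3 stood below all others while the other 2 stood above all. Its log2 fold change was -0.27 (SE 0.264, edgeR adjusted p = 0.553), and its 95% interval ran from 0.555 to 1.24 times the wild-type level. The value hangs on wild-type replicate 3: without that library prox1a fell by 0.56 on the log2 scale (edgeR adjusted p = 0.0411). The summed level of 16 lens genes was also lowest in wild-type replicate 3 among all pools, at 2033 CPM, against 3553 and 3569 CPM in wild-type replicates 1 and 2. In EWSR1-ERG pools that sum was 3754, 2396 and 3690 CPM, and prox1a was highest in replicate 2, where the lens sum was lowest. Hepatocyte and slow muscle genes ran the other way in wild-type replicate 3. The summed level of 20 hepatocyte genes was 8250, 7772 and 8500 CPM in EWSR1-ERG pools and 8693, 9870 and 11450 CPM in wild-type pools. That of 13 slow muscle genes was 16422, 19870 and 22526 CPM in EWSR1-ERG pools and 21673, 23580 and 24803 CPM in wild-type pools. Both sums were thus highest in wild-type replicate 3, where prox1a was lowest. No list of neural genes was summed, and the part of lens, liver, muscle or neural RNA in the prox1a values was not tested.

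The growth factor receptor gene flt4 (ENSDARG00000015717, chromosome 14) varied least. It had 72, 66 and 144 counts in EWSR1-ERG pools, against 64, 55 and 58 counts in wild-type pools. These came to 11.03, 11.5 and 11.1 CPM in EWSR1-ERG pools and 10.8, 10.6 and 13.1 CPM in wild-type pools. The groups overlapped, and the log2 fold change was -0.036 (SE 0.166, edgeR adjusted p = 0.918). Its 95% interval of 0.762 to 1.25 times the wild-type level lay below that of each of the 4 receptor genes.

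EWSR1-ERG replicate 1 was the highest pool for stab1, stab2, mrc1a and lyve1a. With that library left out, the log2 fold changes were 1.33 for stab1, 1.21 for stab2, 0.82 for mrc1a and 2.55 for lyve1a, and all 4 calls held (edgeR adjusted p of 5.67e-05, 0.000771, 0.0121 and 1.02e-05 in that order). The calls of stab2 and mrc1a did end with 1 wild-type library fewer. For stab2 the log2 fold change was 1.66 without wild-type replicate 2 (adjusted p = 0.0528) and 1.66 without wild-type replicate 3 (adjusted p = 0.0833). For mrc1a it was 1.097 without wild-type replicate 2 (adjusted p = 0.0714) and 1.24 without wild-type replicate 3 (adjusted p = 0.053). The calls of stab1 and lyve1a held with any single library left out, at log2 fold changes of 1.33 to 1.59 and of 2.45 to 3.28.

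**Figure D2:**
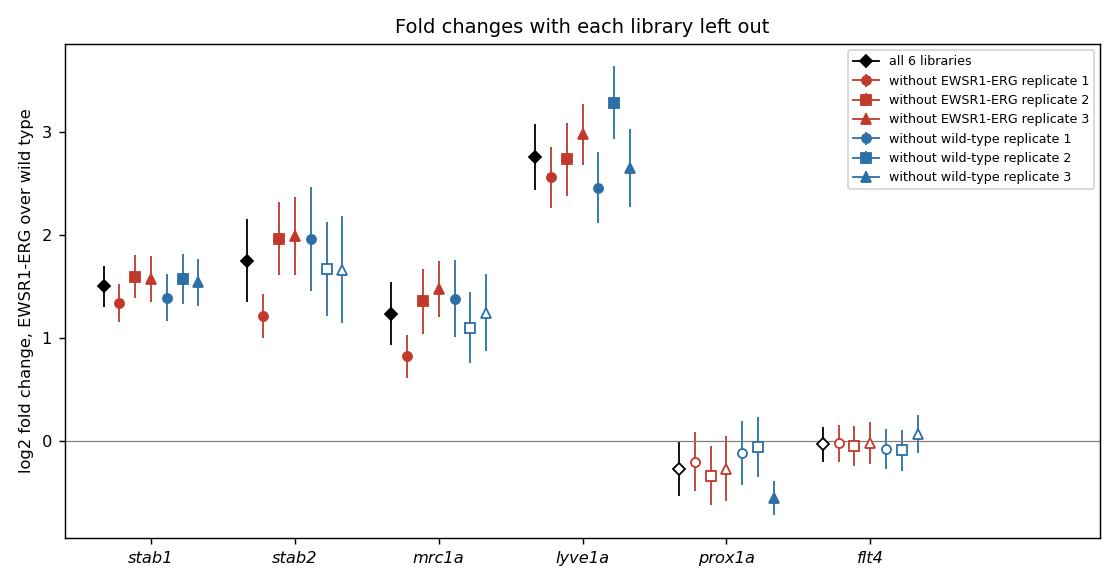
Log2 fold change of EWSR1-ERG over wild type with its SE for each gene, from all 6 libraries (black) and with each EWSR1-ERG library (red) or wild-type library (blue) left out; filled symbols passed an adjusted p of 0.05. The values of stab1 and lyve1a stay filled throughout, those of stab2 and mrc1a open without wild-type replicate 2 or 3, and that of prox1a is filled only without wild-type replicate 3, at -0.56.

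The paralogs of these genes, named for that relation, gave mixed values. The second mannose receptor gene mrc1b rose to 15.7 ± 0.734 CPM in EWSR1-ERG pools, against 7.40 ± 0.949 CPM in wild-type pools (SD, n = 3 per group; log2 fold change 1.08, SE 0.170, edgeR adjusted p = 0.000562). For lyve1b, whose expression marks zebrafish lymphatic and venous endothelium, the log2 fold change was 0.46 (adjusted p = 0.331), with 4.40 ± 1.04 CPM in EWSR1-ERG pools and 3.14 ± 0.61 CPM in wild-type pools. For prox1b it was -0.46 (adjusted p = 0.202), with 7.81 ± 1.13 CPM in EWSR1-ERG pools and 10.8 ± 3.50 CPM in wild-type pools.

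Of 21 further scavenger and endocytic receptor genes tested, 4 rose (19%, against 7.46% of all tested genes) and 1 fell (4.76%, against 9.87%). Their median log2 fold change was 0.26, against 0.0047 over all tested genes. The highest was marco, a scavenger receptor of macrophages which is also among the macrophage markers, at 15.1 ± 5.46 CPM in EWSR1-ERG pools and 2.39 ± 0.897 CPM in wild-type pools (log2 fold change 2.63, edgeR adjusted p = 0.0002). The others that rose were mrc1b, the collectin receptor gene colec12 (0.71, adjusted p = 0.00109) and ldlr, a low-density lipoprotein receptor gene (0.76, adjusted p = 0.00906), whose call ended without wild-type replicate 2 (0.56). The gene that fell was lrp8, a reelin receptor of the nervous system (-0.63, adjusted p = 0.0254), and its call ended without EWSR1-ERG replicate 2 (-0.53) or wild-type replicate 1 (-0.53) or 2 (-0.57). For cd36, which encodes a receptor for fatty acids and lipoproteins, the value was -0.69 (adjusted p = 0.0748), and -0.995 with a call without EWSR1-ERG replicate 2. With all 6 libraries cd36 was also called lower by limma-voom (-0.77, adjusted p = 0.0458) and by edgeR with no filter on low counts (-0.68, adjusted p = 0.0414). For dab2, which encodes an adaptor of endocytosis, it was 0.45 (adjusted p = 0.0978), and it was called at 0.57 without EWSR1-ERG replicate 2 and at 0.45 with no filter on low counts (adjusted p = 0.0488).

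Of 31 further lymphatic growth genes tested, 8 rose (25.8%, against 7.46% of all tested genes) and 1 fell (3.23%, against 9.87%), and their median log2 fold change was 0.27. Among the genes called, sox7, tie1 and tek are also in the blood vessel list below and cxcr4a is in the arterial list, so these lists are not separate sets of genes. The ligand gene vegfc did not pass, at 0.13 (edgeR adjusted p = 0.812), nor did ccbe1, whose product promotes Vegfc processing, at -0.24 (adjusted p = 0.755). The protease gene ADAMTS3 stood at 0.98 (adjusted p = 0.0528) and was called at 1.44 without wild-type replicate 2. With all 6 libraries ADAMTS3 was also called higher by limma-voom (1.04, adjusted p = 0.046) and by edgeR with no filter on low counts (0.99, adjusted p = 0.0407). The gene figf, also called vegfd, stood at -0.83 (edgeR adjusted p = 0.1). It had 1.86 CPM in EWSR1-ERG pools and 3.40 CPM in wild-type pools, without overlap. The list gene ADAMTS14 did not pass the filter on low counts and was not tested. Without wild-type replicate 2 vegfc stood at -0.042 and ccbe1 at 0.052, so their signs turned. These are sparse genes, with 3.34 ± 0.319 CPM of vegfc in EWSR1-ERG pools and 3.07 ± 0.706 CPM in wild-type pools (SD, n = 3 per group). The transcription factor gene sox18, which acts upstream of lymphatic prox1 in the mouse, rose, with a log2 fold change of 0.88 (SE 0.196, edgeR adjusted p = 0.0067), to 10.7 ± 1.33 CPM in EWSR1-ERG pools, against 5.83 ± 0.39 CPM in wild-type pools. Its relative sox7 rose by 0.45 (adjusted p = 0.0335), but the call ended, at 0.43 to 0.46, without EWSR1-ERG replicate 2 or 3 or any 1 wild-type replicate, and DESeq2 did not call it with all 6 libraries (0.45, adjusted p = 0.118). The venous factor gene nr2f2 stood at -0.29 (adjusted p = 0.137).

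The smallest p-values of that pathway after lyve1a were those of mafbb, a transcription factor gene also active in macrophages (1.08, edgeR adjusted p = 0.000132), and cxcr4a, a chemokine receptor gene (1.34, adjusted p = 0.00038). Of the Cxcl12 ligand genes, cxcl12a rose by 0.71 (adjusted p = 0.000451). In contrast, cxcl12b stood at -0.44 (adjusted p = 0.0728) and was lower in EWSR1-ERG pools without overlap, though not called. The paralogous receptor gene cxcr4b stood at -0.34 (adjusted p = 0.37). The remaining genes that rose were mafba (0.49, adjusted p = 0.0101), SVEP1, an extracellular matrix gene needed for lymphatic growth (0.78, adjusted p = 0.0149), and the receptor gene tie1 (0.82, adjusted p = 0.0357). The call of mafba ended without wild-type replicate 1 (0.41) or 2 (0.49) and that of SVEP1 without wild-type replicate 2 (0.80). The call of tie1 ended without EWSR1-ERG replicate 1 (0.65) or 2 (0.89) or wild-type replicate 1 (0.56) or 3 (0.87). The gene that fell was tek, which encodes the angiopoietin receptor Tie2, at 3.81 ± 1.27 CPM in EWSR1-ERG pools and 7.50 ± 1.30 CPM in wild-type pools (-0.90, adjusted p = 0.0319). Its call ended without EWSR1-ERG replicate 1 (-0.83) or 2 (-0.72) or wild-type replicate 1 (-0.83) or 3 (-0.81). Without wild-type replicate 1, 5 of these pathway genes were higher in place of 8.

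**Figure D3:**
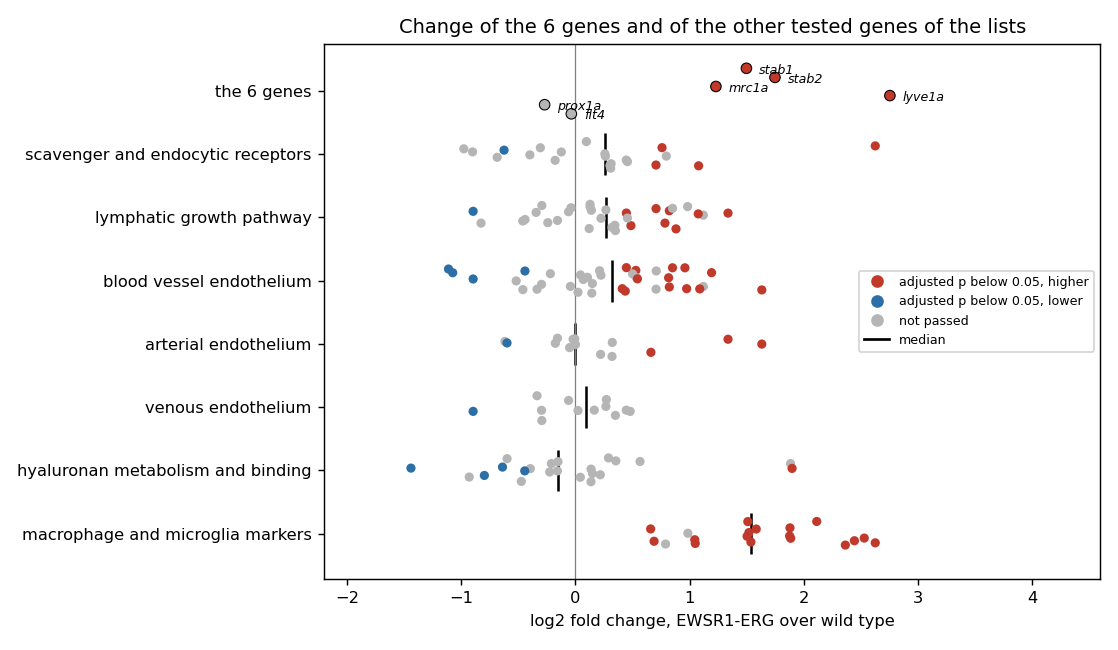
Log2 fold change of EWSR1-ERG over wild type for the 6 genes (top, outlined and named) and for the other tested genes of 7 lists, 1 point per gene, red where called higher, blue where called lower and grey where not passed; vertical bars are list medians. Of the lists shown, the macrophage and microglia list has the highest median, at 1.54, and the venous list holds no gene called higher.

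Of 36 tested genes of blood vessel endothelium, 47.2% were called in either direction, against 17.3% of all tested genes. Of the 36, 13 rose (36.1%, against 7.46%) and 4 fell (11.1%, against 9.87%), and the median log2 fold change was 0.32. Those with the smallest p were the tight junction gene cldn5b (1.63, edgeR adjusted p = 3.67e-07), the fenestral diaphragm gene plvapb, listed as vsg1 (1.09, adjusted p = 4.74e-05), and she, an adaptor gene (0.96, adjusted p = 0.000205). Genes that fell included the receptor phosphatase gene ptprb (-1.08, adjusted p = 0.000832), the sphingosine phosphate receptor gene s1pr1 (-0.44, adjusted p = 0.00783), plvapa, listed as si:dkey-208k22.3 (-1.11, adjusted p = 0.0316), and tek. Without wild-type replicate 2 s1pr1 stood at -0.41 and was not called, and plvapa lost its call without EWSR1-ERG replicate 1 (-0.83) or wild-type replicate 1 (-1.09) or 2 (-1.04). Without wild-type replicate 1 the list had 7 higher and 2 lower genes, without wild-type replicate 2 it had 6 and 2, and without EWSR1-ERG replicate 1 it also had 2 lower genes. The endothelial receptor gene kdrl stood at 0.22 (adjusted p = 0.315) and the endogenous ETS factor gene erg at -0.46 (adjusted p = 0.442). The value of erg rests on low counts, 43 in all EWSR1-ERG pools and 36 in all wild-type pools.

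Split by vessel type, none of the 12 tested venous genes other than flt4 was called higher by edgeR, against 7.46% of all tested genes. Of the 12, tek was lower (8.33%, against 9.87%). At an unadjusted p under 0.05, 3 of them were higher. DESeq2 and limma-voom also called none higher, and edgeR called 1 with no filter on low counts and 1 without EWSR1-ERG replicate 1 or 2. The number lower was 2 with no filter and 2 with a filter of 1 CPM in 3 libraries. It was 0 without EWSR1-ERG replicate 1 or 2 or wild-type replicate 1 or 3. The venous receptor gene ephb4a stood at 0.27 (adjusted p = 0.112). Of 14 tested arterial genes, 3 rose (21.4%, against 7.46% of all tested genes) and 1 fell (7.14%, against 9.87%). The median log2 fold change was nevertheless -0.003 over the arterial genes and 0.094 over the 12 venous genes, against 0.0047 over all tested genes. The arterial genes that rose were cldn5b, cxcr4a and the water channel gene aqp1a.1 (0.66, adjusted p = 0.00182). Of these, cldn5b is also in the blood vessel list and cxcr4a in the lymphatic growth list. The Notch target gene hey1 fell, with a log2 fold change of -0.60 (edgeR adjusted p = 0.0287), but its call ended without wild-type replicate 1 (-0.66), 2 (-0.56) or 3 (-0.59).

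To set the 6 genes against vessel genes within each library, the mean log2 CPM of the 36 tested endothelial genes was subtracted from that of each gene. On this scale stab1 stood at 0.73, 0.31 and 0.32 in EWSR1-ERG pools, against -0.92, -0.60 and -0.69 in wild-type pools. For stab2 the values were 1.01, -0.20 and -0.18 in EWSR1-ERG pools and -0.81, -1.29 and -1.36 in wild-type pools. For mrc1a they were 0.73, -0.06 and -0.34 in EWSR1-ERG pools, against -0.54, -1.07 and -0.78 in wild-type pools, and for lyve1a 0.62, 0.47 and -0.13 against -2.66, -1.41 and -2.33. These 4 genes were thus higher relative to endothelial genes in every EWSR1-ERG pool, by 1.19, 1.36, 0.90 and 2.45 on the log2 scale (exact permutation p = 0.1 each and 0.12 after adjustment over the 6 genes, n = 3 per group, where 0.1 is the smallest possible).

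Relative to the same endothelial genes, flt4 was lower in every EWSR1-ERG pool, at -0.34, -0.16 and -0.31, against -0.04, -0.08 and 0.19 in wild-type pools (difference -0.29, exact permutation p = 0.1). For prox1a the difference was -0.40 and the groups overlapped (exact permutation p = 0.4, n = 3 per group). Over all tested genes, 44.4% did not overlap on this scale, 5.65% being higher and 38.7% lower, and the endothelial mean itself was 0.26 higher in EWSR1-ERG pools. The subtraction takes away a rise of only that size, whatever cells express the gene. The higher values of stab1, stab2, mrc1a and lyve1a on this scale therefore do not tell which cells their RNA came from. With the median of the list in place of its mean, flt4 stood at -0.20 and its groups overlapped (exact permutation p = 0.2).

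Macrophage genes were, like the 4 receptor genes, higher in EWSR1-ERG pools. Of 19 tested macrophage and microglia markers, 17 rose (89.5%, against 7.46% of all tested genes) and none fell (against 9.87%), and the median log2 fold change was 1.54. All 19 had a positive value, so none was lower at an unadjusted p under 0.05 either, and DESeq2 and limma-voom called none lower. The 3 with the smallest p were the cathepsin S gene ctssb.1 (2.44), the macrophage gene mfap4 (2.36) and the leukocyte plastin gene lcp1 (1.89), with edgeR adjusted p of 2.2e-07, 3.28e-06 and 6.98e-06. The summed level of all 26 markers was 2950, 1991 and 1899 CPM in EWSR1-ERG pools and 933, 995 and 1277 CPM in wild-type pools. None of the markers was at 0 in all libraries, and EWSR1-ERG replicate 1 was again the highest. Among wild-type pools the sum, to which abundant markers add most, was highest in replicate 3, and none of the 4 receptor genes was highest there. By the mean log2 CPM of the 19 tested markers, however, replicate 1 was the highest wild-type pool. It was also the highest wild-type pool for stab2 and mrc1a, but not for stab1 and lyve1a. The order of the wild-type pools thus depended on the measure. The defining marker mpeg1 stood at 38.6, 26.6 and 27.5 CPM in EWSR1-ERG pools and at 8.13, 7.36 and 9.71 CPM in wild-type pools.

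A second subtraction, chosen after the data were seen, used the mean log2 CPM of the 19 tested macrophage markers. On that scale the differences between EWSR1-ERG and wild-type pools were -0.12 for stab1, 0.05 for stab2 and -0.40 for mrc1a, and the groups overlapped for all 3 (exact permutation p = 0.6, 1 and 0.3, n = 3 per group). The median log2 fold change of the markers was 1.54, so the subtraction takes away a rise of that size, whatever cells express the gene. The overlap therefore does not tell which cells the RNA of these genes came from. For lyve1a the difference was 1.15 (exact permutation p = 0.1, the smallest possible), with -0.30, -0.44 and -0.85 in EWSR1-ERG pools and -2.29, -0.87 and -1.87 in wild-type pools. The gap was narrow, as EWSR1-ERG replicate 3 and wild-type replicate 2 lay side by side, and 0.404% of all tested genes were higher without overlap on that scale. Differences of -1.70 for prox1a and -1.60 for flt4 were not unusual there, because 96.5% of all tested genes were lower without overlap. How much of the RNA of the 4 receptor genes came from macrophages was not tested.

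**Figure D4:**
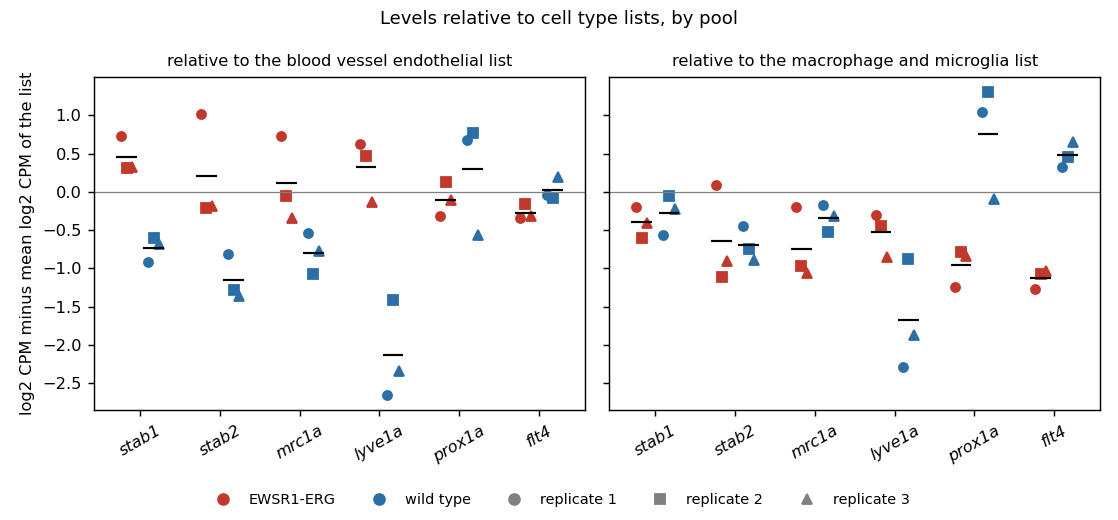
Log2 CPM of each gene minus the mean log2 CPM of 36 blood vessel endothelial genes (left) or of 19 macrophage and microglia genes (right), in each EWSR1-ERG pool (red) and wild-type pool (blue); symbols give the replicate number and lines the group mean. On the left stab1, stab2, mrc1a and lyve1a lie higher in all EWSR1-ERG pools, and on the right only lyve1a does.

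Several of the receptors bind hyaluronan, a matrix polysaccharide. Of 22 tested genes of its synthesis, breakdown and binding, 1 rose (4.55%, against 7.46% of all tested genes) and 4 fell (18.2%, against 9.87%), and the median log2 fold change was -0.16. The hyaluronan synthase gene has2 stood at -0.16 (edgeR adjusted p = 0.736; 0.011 without wild-type replicate 2) and cd44a, a hyaluronan receptor gene, at 1.88 (adjusted p = 0.181), with 27.0 CPM in EWSR1-ERG replicate 1 against 6.65 and 5.22 CPM in the other EWSR1-ERG pools; without EWSR1-ERG replicate 3 it was called at 2.33. The versican gene vcanb fell to 59.0 ± 11.1 CPM in EWSR1-ERG pools, against 103 ± 7.98 CPM in wild-type pools (-0.80, adjusted p = 0.000843), whereas its sparse paralog vcana rose (1.90, adjusted p = 0.000998). The cartilage proteoglycan genes acana (-0.64, adjusted p = 0.00981) and acanb (-1.44, adjusted p = 0.0238) and the link protein gene hapln1b (-0.44, adjusted p = 0.0245) also fell. The call of hapln1b ended without EWSR1-ERG replicate 2 (-0.38) or wild-type replicate 1 (-0.44) or 3 (-0.36). Without wild-type replicate 1 acana stood at -0.57 and was not called, and acanb lost its call without EWSR1-ERG replicate 3 (-1.001) or wild-type replicate 1 (-1.31) or 2 (-1.41). Without wild-type replicate 1, 1 gene of the list was lower in place of 4.

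Markers of other cells in the embryo differed in direction. Over all tested genes, 7.46% were called higher and 9.87% lower. Among 9 tested genes listed as neutrophil markers, 6 rose (66.7%) and 1 fell (11.1%). Those that rose include the myeloperoxidase gene mpx (2.14), npsn (1.56) and the NADPH oxidase gene ncf1 (2.04). The gene that fell was cpa5, a carboxypeptidase gene (-1.70), and its use as a neutrophil marker was not tested here. Of 17 tested hepatocyte genes, 6 rose (35.3%), among them c3a (1.86), the fibrinogen gene fgg (0.95) and apobb (0.95). In the same list 7 fell (41.2%), among them the transferrin gene tfa (-2.56), gc (-3.17) and the transthyretin gene ttr (-3.07). Of 15 tested lens genes, 1 fell (6.67%) and none rose. The gene that fell was pitx3 (-0.63, edgeR adjusted p = 0.0163), a call that ended without wild-type replicate 2 (-0.51). At an unadjusted p under 0.05, 1 lens gene was higher, and DESeq2 called none higher. The largest positive lens value was that of bfsp2 (0.81, adjusted p = 0.137), and it was called higher by limma-voom (0.85) and without EWSR1-ERG replicate 2 (0.999). Of 13 slow muscle genes, 5 fell (38.5%), including tnnt1 (-2.35), myh7bb (-1.13) and tpm2 (-0.69), and 1 rose (7.69%). The gene that rose was prdm1a (0.52, adjusted p = 0.0267), a call that ended without EWSR1-ERG replicate 1 (0.43) or wild-type replicate 1 (0.46) or 2 (0.48). DESeq2 did not call prdm1a with all 6 libraries (0.52, adjusted p = 0.0583), and by it no slow muscle gene was higher. Without wild-type replicate 2, 3 slow muscle genes were lower, and without EWSR1-ERG replicate 1, 3 were higher. Of 15 mural and fibroblast genes, 2 fell (13.3%) and none rose. Those that fell were the smooth muscle actin gene acta2 (-1.08, adjusted p = 0.00379) and lum (-0.36, adjusted p = 0.043). The call of lum ended without EWSR1-ERG replicate 2 (-0.34) or 3 (-0.33) or any wild-type replicate (-0.42, -0.43 and -0.24 without replicates 1, 2 and 3). With all 6 libraries, neither DESeq2 (-0.36, adjusted p = 0.0721) nor limma-voom (-0.36, adjusted p = 0.0506) called lum.

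Across the 6 libraries, log2 CPM of the 4 receptor genes varied together, with Pearson's r between 0.813 (mrc1a and lyve1a) and 0.982 (stab2 and mrc1a). Between prox1a and flt4 r was -0.856, and between either of them and the receptor genes it lay between -0.296 and -0.0874. These are descriptions over 6 libraries that share the group difference and the scaling. The genes most like each of the 6, among 13483 other tested genes with a mean of at least 5 CPM, were sox18, slu7 and pepd for stab1, itga5, rbpja and hsp90aa1.1 for stab2, and slc35c2, sec22ba and prdx1 for mrc1a (r of 0.997 to 0.999). For lyve1a they were cyp27c1, naa15b and tnfrsf21 (0.994 to 0.996), for prox1a bcl9l, bcl11aa and map3k7 (0.991 to 0.995), and for flt4 ccdc94, AC024175.17 and fkbp3 (0.989 to 0.993). Such values are common with 6 libraries: r was above 0.9 for 1083 genes with stab1, 860 with stab2, 854 with mrc1a, 788 with lyve1a, 139 with prox1a and 60 with flt4.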

How the data were processed

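Whole-embryo RNA of 3 EWSR1-ERG and 3 wild-type pools was sequenced. Bowtie2, SAMtools, DESeq and Zv9 are named in the submitters' processing notes. How they were used, in which version and with which annotation, counter or strand option is not stated there, so reads of overlapping or antisense genes cannot be told apart. The deposited columns were handled with the unit of expected counts, since each closes with a fractional size factor under its whole-number gene counts. That factor and a blank line, 2 lines per library, were dropped and never applied. Genes were filtered with edgeR 4.0.16 filterByExpr (minimum count 10, minimum total 15), scaled by trimmed mean of M values and compared by its quasi-likelihood F test with robust estimation, without a covariate, at a Benjamini-Hochberg adjusted p of 0.05 over all tested genes. The SE is the absolute log2 fold change divided by the square root of F, and 95% intervals use the test's degrees of freedom. Log2 CPM used a prior count of 2. The alternatives were DESeq2 1.42.0, limma-voom (limma 3.58.1), other scalings and filters, a replicate block and leaving out each library. Tests were checked on simulated counts with 200 changed genes, fewer than the 3041 called here. That check therefore does not cover a change as wide as in these data. A total of 12 gene lists had 284 entries, matched by symbol or the gene name and RefSeq (GRCz12tu) tables. The members and lists were chosen with earlier results of these data known. All 6 members are named, with up to 3 genes called higher and 3 called lower per list by smallest adjusted p, the 3 genes most correlated with each member, and others chosen by role or after their values were seen. A count of 0 allows up to 3 counts, or 0.230 to 0.678 CPM by library; floors and Poisson intervals cover counting error only. No sequences were used here, and levels were not compared between genes because transcript lengths were not used.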

Additional observations from a re-analysis of the deposited data

How the results depend on the processing

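The fold changes of stab1 and lyve1a kept their direction and their call under all 14 alternatives. That of stab2 lost its call with no filter on low counts (1.76, adjusted p = 0.0779) and when wild-type replicate 2 or 3 was left out; with 1 library left out its log2 fold change ran from 1.21 to 1.99, that of mrc1a from 0.82 to 1.47, and that of prox1a, called only without wild-type replicate 3, from -0.56 to -0.061. The sign of flt4, which was never called, reversed without wild-type replicate 3, with a range of -0.091 to 0.064. Over all genes, leaving out 1 library gave 646 to 1334 higher and 981 to 1668 lower genes, against 1309 and 1732 from all 6. Relative to macrophage genes in place of endothelial genes, the differences of stab1 (-0.12) and mrc1a (-0.40) were reversed in sign. Their groups overlapped there (exact permutation p = 0.6 and 0.3), and 96.5% of all tested genes were lower without overlap on that scale. Same-numbered pools did not deviate together (correlations -0.12, 0.09 and -0.02). These correlations cannot exclude that the numbers pair the pools, and the labels do not say. With a replicate block 2548 genes were called in place of 3041. The 6 genes kept their calls under the block (lyve1a 2.80, stab2 1.74, mrc1a 1.23, stab1 1.49, prox1a -0.18, flt4 -0.042), while lrp8, prdm1a, lum, sox7 and tie1 lost theirs and cd44a gained one. Fits that leave a library out also have fewer samples, and the causes of these changes were not tested. Of 1204 values of list genes and list counts under these alternatives, 1086 kept their call or stayed within 1.5 times, 52 lost a call, 12 gained one, 51 counts moved by more and 3 reversed, all without wild-type replicate 2 and none called (vegfc -0.042, ccbe1 0.052, has2 0.011; with 1 library left out vegfc ran up to 0.31, ccbe1 down to -0.66 and has2 down to -0.25). Wild-type counts of 9 to 45 for the receptor genes limit the precision of their fold changes.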
